A study of Mus musculus with 6 samples.

Results

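The genes described here carry signals through the G protein Gq in the heart. They comprise 5 receptors (Adra1a, Adra1b, Agtr1a, Ednra and Ednrb), the 2 alpha subunits Gnaq and Gna11, and the 3 RGS proteins Rgs2, Rgs4 and Rgs5. The members were all probe sets to which the array's annotation gives one of these symbols alone, and each gene was represented by its probe set of highest mean log2 value over the 6 arrays. Of the 10 genes, 8 had such a probe set, 25 probe sets in all, among 18193 genes on the array. Adra1a and Ednra had none and were not analysed here. All 8 were among the 11254 genes tested, and the lowest signal of any of their main probe sets, 68.6 for Adra1b, was above the filter level of 50.2.

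Noradrenaline, angiotensin II and endothelin act on heart cells and vessels through receptors that activate Gq and its close relative G11. The alpha subunits switch on phospholipase C beta, which releases inositol trisphosphate and diacylglycerol and so raises calcium release and protein kinase C activity. RGS proteins speed up the hydrolysis of GTP by the alpha subunit and end the signal, and G protein-coupled receptor kinases (GRKs) act at the receptor. In the heart, strong activation of Gq is known for its part in hypertrophic growth.

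Heart RNA of male mice aged 2 months was measured on 6 Affymetrix arrays, 2 in each of 3 groups, all labelled with a B6 strain background. The RKIP-transgenic group carried RKIP, an inhibitor of RAF and of GRKs, behind the alpha-MHC promoter, which acts in heart muscle cells. The GRK-Inh-transgenic group expressed a GRK-specific peptide inhibitor in the myocardium, and its promoter is not named. The B6 control group was wild type. The labels do not say whether arrays came from separate animals or pools, and describe a single line per transgene, so effects of the transgene and of the line cannot be told apart; the spread that p-values rest on is that between the arrays, which may be technical. Median signals per array were 50.4 to 55.2. The cardiomyocyte markers had a probe set above the filter level for 10 of 10 genes, with a summed signal of 248541 to 263798 on the 6 arrays. The main probe set of Pebp1, the mouse gene for RKIP, gave 8766 to 9296 on the 6 arrays and did not pass in any comparison (adjusted p = 0.737 to 0.916), and its other probe set gave 5284 to 5912. These probes may not read the transgene, so the group is called RKIP-labelled below. Between its 3' and 5' probe sets, the actin control had a signal ratio of 2.92 to 3.03 on the 4 transgenic arrays and 3.25 and 3.11 on the control arrays, and the part of this difference in the results below was not tested.

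The promoters of the 4 genes that fell in RKIP-labelled hearts (4 of 8, where 5.51% of all genes tested were called lower and 5.32% higher) are shown because these members moved in the same direction. Each sequence is the 250 bases before the start of transcription, 5' to 3', from RefSeq on build GRCm38.p6, with TGACG, the shorter form of the cAMP response element (CRE), read on both strands, in capitals. The motif was chosen with these sequences in view.
Rgs2, chr1:144004150-144004399, minus strand: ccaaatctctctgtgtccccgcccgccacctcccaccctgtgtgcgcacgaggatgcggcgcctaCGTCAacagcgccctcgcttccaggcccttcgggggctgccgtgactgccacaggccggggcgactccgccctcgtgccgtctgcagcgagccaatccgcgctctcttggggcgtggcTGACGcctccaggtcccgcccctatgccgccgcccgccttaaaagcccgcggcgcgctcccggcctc
Rgs4, chr1:169747643-169747892, minus strand: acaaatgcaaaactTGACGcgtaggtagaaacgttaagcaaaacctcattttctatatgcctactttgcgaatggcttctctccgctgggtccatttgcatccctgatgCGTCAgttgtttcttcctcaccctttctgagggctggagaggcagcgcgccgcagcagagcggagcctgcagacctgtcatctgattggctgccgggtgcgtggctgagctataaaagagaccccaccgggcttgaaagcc
Ednrb, chr14:103843702-103843951, minus strand: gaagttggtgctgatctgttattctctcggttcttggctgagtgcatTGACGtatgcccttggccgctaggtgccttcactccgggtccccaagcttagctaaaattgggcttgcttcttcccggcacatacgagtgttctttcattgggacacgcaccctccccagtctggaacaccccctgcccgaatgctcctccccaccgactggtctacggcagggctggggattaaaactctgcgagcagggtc
Rgs5, chr1:169655251-169655500, plus strand: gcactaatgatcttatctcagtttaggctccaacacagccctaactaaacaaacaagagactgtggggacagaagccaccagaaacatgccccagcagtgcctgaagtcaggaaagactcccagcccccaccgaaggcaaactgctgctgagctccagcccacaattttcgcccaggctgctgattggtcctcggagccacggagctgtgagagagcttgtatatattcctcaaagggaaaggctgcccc
The Rgs2 promoter held 2 short sites, starting at -185 and -67 from the start of transcription, and that of Rgs4 held 2, at -236 and -141. Ednrb held 1, at -203. In the window of Rgs5 these letters did not occur. Of 32851 promoter windows in the RefSeq table, 17.8% held at least 1 such site. The full site TGACGTCA, which contains TGACG on both strands, occurred in 1.55% of all windows and in none of these 4. A match describes letters and is not a measured binding site. Also searched on both strands were the NFAT core GGAAA (in 55.6% of all windows), the E-box CACGTG (6.02%), the CCAAT box (33.8%), the CArG box (1.47%), the GC box GGGCGG (32.7%) and the TATA box TATAAA (12.4%). The CCAAT box occurred in all 4 promoters, at -94 in Rgs2, -57 in Rgs4, -67 in Rgs5, and -146 and -106 in Ednrb, and so was shared by more of them than TGACG. Rgs2 held 4 GC boxes, at -232, -119, -52 and -38, Rgs4 held a TATA box at -31, and Rgs5 held NFAT cores at -140 and -14. The E-box and the CArG box occurred in none of the 4. RefSeq windows were found for 8 of the 10 genes.

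Rgs2, which acts preferentially on Gq, gave the clearest difference among the members. Its signals were 1284 and 1281 in RKIP-labelled hearts, 1718 and 1581 in GRK-Inh hearts, and 2147 and 2141 in control hearts. The 3 groups did not overlap, and they stood in the order control, GRK-Inh, RKIP-labelled. The mean was 40.2% below that of the controls in RKIP-labelled hearts (log2 fold change -0.72 ± 0.061 SE, adjusted p = 4.2e-05). In GRK-Inh hearts the mean was 23.1% below the controls (-0.37 ± 0.061, adjusted p = 0.00248). The direct comparison of the lines also passed, with RKIP-labelled hearts lower by 0.35 on the log2 scale (adjusted p = 0.00556). That last call ended without GRK-Inh array 1 (adjusted p = 0.0568) and when limma's variance trend was left out (adjusted p = 0.0774), whereas both comparisons with controls passed under all 17 alternatives.

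Further probe sets of Rgs2 gave the same order. The probe set 1419248_at read 1174 and 1231 in RKIP-labelled, 1658 and 1728 in GRK-Inh, and 2219 and 2209 in control hearts. For 1447830_s_at, whose suffix marks probes that can match several transcripts, the values were 803 and 725, then 1027 and 1035, then 1470 and 1411. All 3 probe sets above the filter level therefore separated the 3 groups without overlap. The share of all probe sets that do so was not counted, and Adra1b, which did not pass, also separated the 3 groups. Against controls their log2 fold changes lay between -0.87 and -0.72 in RKIP-labelled hearts and between -0.46 and -0.37 in GRK-Inh hearts. Each of the 3 passed in all 3 comparisons when probe sets were tested one by one. Of all 22519 probe sets in that fit, 7.58% passed in RKIP-labelled hearts, 10.3% in GRK-Inh hearts and 5.74% between the lines. The other probe set of Rgs2 stayed at 32.3 to 64.6, mostly below the filter level.

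**Figure D1:**
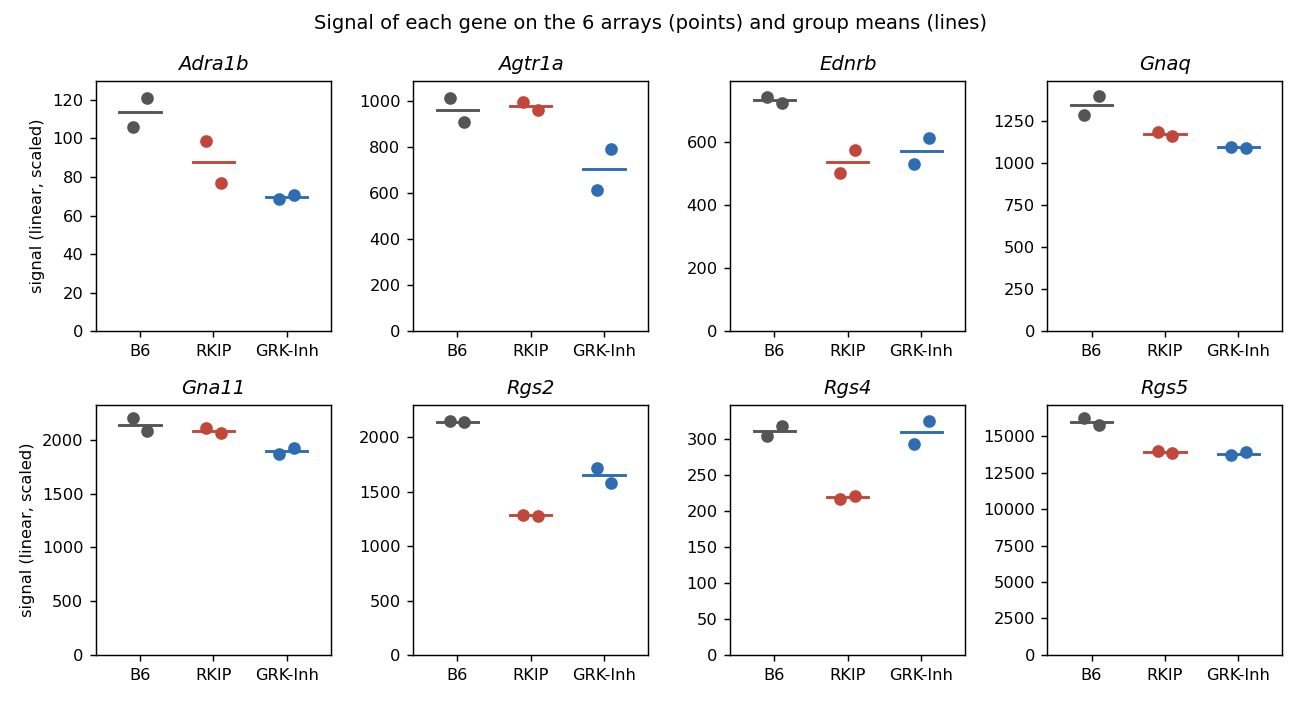
Linear signal of the main probe set of each gene on every array (points) and the mean of each group (lines), on axes that start at 0. Rgs2, Gnaq and Adra1b separate all 3 groups, both RKIP-labelled points of Rgs4 lie below the other 4, and Agtr1a is low in GRK-Inh hearts.

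Rgs4, another RGS protein that acts on Gq and Gi, fell in RKIP-labelled hearts by its main probe set alone. This probe set gave 216 and 221 in RKIP-labelled, 292 and 325 in GRK-Inh, and 304 and 318 in control hearts. The RKIP-labelled arrays lay below all others, and the GRK-Inh and control arrays overlapped. The log2 fold change against controls was -0.43 ± 0.11 in RKIP-labelled hearts (adjusted p = 0.0328) and -0.013 ± 0.11 in GRK-Inh hearts (adjusted p = 0.957, 95% interval -0.26 to 0.23). The lines differed by -0.41 ± 0.11 (adjusted p = 0.0435).

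The other probe sets of Rgs4 did not show this fall. At 1416287_at the signals were 277 and 241 in RKIP-labelled, 303 and 289 in GRK-Inh, and 254 and 277 in control hearts, so RKIP-labelled and control arrays overlapped. At 1448285_at they were 67.9 and 62.9, then 105 and 87.9, then 66.4 and 80.4. Against controls in RKIP-labelled hearts these probe sets gave -0.03 and -0.10, and neither passed. The call against controls was lost without any one of RKIP array 1, RKIP array 2, B6 array 1 or B6 array 2 (adjusted p 0.0233 to 0.145 over the alternatives), and without a filter on dim genes. The difference between the lines passed under 6 of 17 alternatives and was lost without each of the 6 arrays (adjusted p 0.0296 to 0.223 over the alternatives).

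Rgs5, an RGS protein of pericytes and vascular smooth muscle, fell by a similar small amount in both lines. Its main probe set gave 13993 and 13871 in RKIP-labelled, 13691 and 13895 in GRK-Inh, and 16221 and 15784 in control hearts. Both control arrays were above all 4 transgenic arrays, and the transgenic groups overlapped. The log2 fold changes were -0.20 ± 0.034 (adjusted p = 0.00427) and -0.21 ± 0.034 (adjusted p = 0.00204). Both calls were lost when limma's variance trend was left out (adjusted p = 0.164 and 0.12). The lines differed by 0.014 ± 0.034 (adjusted p = 0.852, 95% interval -0.06 to 0.09).

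The probe sets of Rgs5 disagreed. Of 4, only the main one passed against controls in either line when each was tested by itself. The probe set 1420941_at ranged from 5332 to 5764 over the 6 arrays, with control arrays at both ends, and gave 0.02 and 0.01 against controls. The 2 whose suffixes mark shared probes gave -0.18 and -0.12 in RKIP-labelled hearts and -0.03 and -0.01 in GRK-Inh hearts. In bulk heart RNA, fewer cells of a type and less RNA per cell cannot be told apart. Beside Rgs5, at 85.6 to 87.4% of the control mean on the transgenic arrays, the summed signal of 9 pericyte markers was 14047 to 14565 in RKIP-labelled, 12330 to 12384 in GRK-Inh and 15887 to 15948 in control hearts. Of the 9, 3 fell in RKIP-labelled and 4 in GRK-Inh hearts, and none was called higher than controls. Notch3 (log2 fold change 0.20 in RKIP-labelled and 0.01 in GRK-Inh hearts) had higher means than controls without passing. So did Higd1b in GRK-Inh hearts (0.23). The part of the pericyte markers in the result was not tested. Pdgfrb, the receptor that marks pericytes, gave log2 fold changes of -0.18 and -0.49, and the first of these calls passed under 6 of 17 alternatives and was lost without any one of the 6 arrays (adjusted p 0.0282 to 0.199 over the alternatives).

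**Figure D2:**
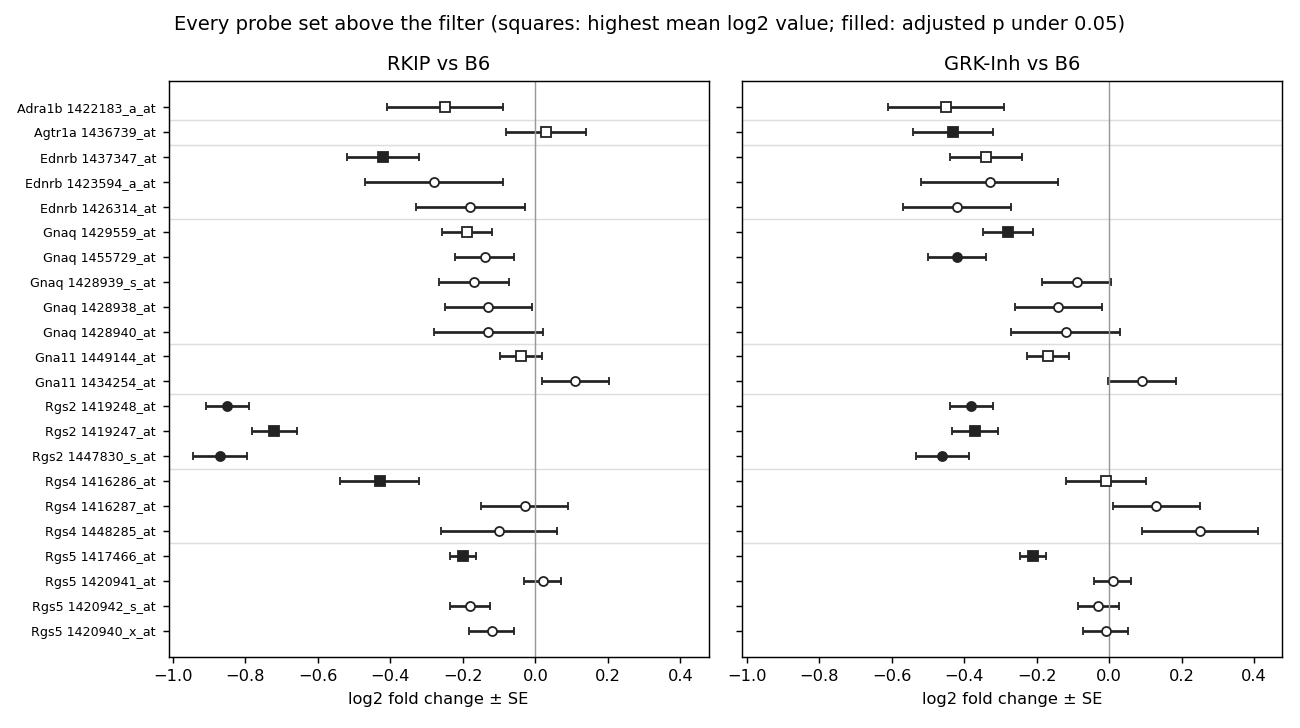
Log2 fold change with its SE for each of the 22 probe sets of the 8 genes above the filter level, tested one by one, in RKIP-labelled (left) and GRK-Inh (right) against control hearts. Squares are the probe sets of highest mean log2 value and filled symbols passed; all 3 of Rgs2 lie well below 0, while those of Rgs4, Rgs5 and Gnaq spread.

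Among the receptors, Ednrb, the endothelin B receptor of endothelium, fell in both lines. Its main probe set gave 500 and 572 in RKIP-labelled, 528 and 611 in GRK-Inh, and 742 and 721 in control hearts. The transgenic arrays overlapped each other and lay below both controls. The log2 fold changes were -0.42 ± 0.097 (adjusted p = 0.0197) and -0.34 ± 0.097 (adjusted p = 0.0432). The call in RKIP-labelled hearts was lost without RKIP array 1, B6 array 1 or B6 array 2 (adjusted p 0.0166 to 0.133 over the alternatives). In GRK-Inh hearts it was lost without GRK-Inh array 1, B6 array 1 or B6 array 2, with the arrays shifted to one median and with probe sets tested one by one (adjusted p 0.035 to 0.246 over the alternatives).

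The other probe sets of Ednrb had lower means in both lines without passing. The values at 1423594_a_at were 233 and 328 in RKIP-labelled, 277 and 258 in GRK-Inh, and 273 and 441 in control hearts, and the arrays of both lines overlapped those of the controls. At 1426314_at they were 115 and 134, then 101 and 93.8, then 135 and 159. Log2 fold changes over the 3 probe sets were -0.42 to -0.18 and -0.42 to -0.33. Beside Ednrb, the summed signal of the endothelial markers was 24507 to 25315 in RKIP-labelled, 25860 to 26242 in GRK-Inh and 28741 to 29757 in control hearts. Most of this sum was the fatty acid binding protein gene Fabp4, at a mean of 18750, 19260 and 22122 in these groups. Of 10 markers tested, 3 fell in each line and none rose, and their median was -0.21 in RKIP-labelled and -0.075 in GRK-Inh hearts (log2 fold change). The markers did not move as one. In RKIP-labelled hearts Tek (-0.42), Kdr (-0.27) and Fabp4 (-0.24) fell, and Vwf gave 0.22 without passing. In GRK-Inh hearts Tek (-0.39), Emcn (-0.38) and Fabp4 (-0.20) fell, while Pecam1 (0.29), Kdr (0.22), Cldn5 (0.18) and Tie1 (0.02) had higher means than controls without passing. Kdr (-0.49), Cldn5 (-0.53) and Pecam1 (-0.37) were lower in RKIP-labelled than in GRK-Inh hearts. Without B6 array 2, Tek was at -0.25 and -0.22 and did not pass in either line. The part of these markers in the values of Ednrb was not tested. Of the 6 tested markers of Schwann cells and melanocytes, which also use Ednrb, none passed in either direction in any comparison.

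Agtr1a, the main angiotensin II receptor of the rodent heart and vessels, fell in GRK-Inh hearts. It gave 996 and 962 in RKIP-labelled, 615 and 792 in GRK-Inh, and 1015 and 909 in control hearts. Both GRK-Inh arrays were below all others, at some distance from each other, and the RKIP-labelled and control arrays overlapped. Against controls the log2 fold change was -0.43 ± 0.11 in GRK-Inh hearts (adjusted p = 0.0216) and 0.025 ± 0.11 in RKIP-labelled hearts (adjusted p = 0.917, 95% interval -0.21 to 0.26). The difference between the lines passed at 0.46 ± 0.11 (adjusted p = 0.024). Without GRK-Inh array 1 the fall against controls was -0.26 and did not pass (adjusted p = 0.146). It was also lost without B6 array 1 or B6 array 2, and the difference between the lines was lost without RKIP array 1, RKIP array 2 or GRK-Inh array 1 (adjusted p 0.00661 to 0.148 over the alternatives).

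Agtr1a has a near-identical paralog, Agtr1b, whose own probe set gave 4.83 to 28.2 on the 6 arrays, below the filter level. Whether the Agtr1a probes also read Agtr1b was not checked, so the signal cannot be assigned to Agtr1a with certainty. Fibroblast markers, from cells that also use this receptor, had a summed signal of 34069 to 34288 in RKIP-labelled, 31149 to 31980 in GRK-Inh and 41401 to 42722 in control hearts. Of 9 markers, 6 fell in RKIP-labelled hearts, where Agtr1a did not pass, and 7 fell in GRK-Inh hearts. None rose, and their part in the result was not tested. Col1a1, a collagen gene of fibroblasts, fell by 1.12 and 1.13 on the log2 scale.

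Adra1b, an alpha-1 adrenergic receptor, had the lowest signals of the members and did not pass. It gave 98.9 and 77.1 in RKIP-labelled, 68.6 and 70.5 in GRK-Inh, and 106 and 121 in control hearts. The 3 groups did not overlap, with the controls highest. The log2 fold changes were -0.25 ± 0.17 (adjusted p = 0.399, 95% interval -0.61 to 0.12) and -0.45 ± 0.17 (adjusted p = 0.103, 95% interval -0.82 to -0.08).

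Gnaq, the alpha subunit of Gq, fell in GRK-Inh hearts. The main probe set gave 1185 and 1159 in RKIP-labelled, 1097 and 1091 in GRK-Inh, and 1284 and 1401 in control hearts. The 3 groups did not overlap, in the order control, RKIP-labelled, GRK-Inh. The log2 fold change in GRK-Inh hearts was -0.28 ± 0.067 (adjusted p = 0.0188), and in RKIP-labelled hearts -0.19 ± 0.067 (adjusted p = 0.109). The difference between the lines was 0.095 ± 0.067 and did not pass (adjusted p = 0.448). The call in GRK-Inh hearts was lost without GRK-Inh array 1, GRK-Inh array 2 or B6 array 2, and when limma's variance trend was left out (adjusted p 0.0134 to 0.123 over the alternatives).

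Of 7 probe sets of Gnaq, 5 were above the filter level, and all 5 had lower means than controls in both lines. In GRK-Inh hearts 2 of the 5 passed one by one, where 10.3% of all probe sets tested did. The second of them, 1455729_at, read 863 and 779 in RKIP-labelled, 689 and 651 in GRK-Inh, and 895 and 927 in control hearts, a log2 fold change of -0.42 in GRK-Inh hearts (adjusted p = 0.00866). The other 3 gave -0.14 to -0.09 there, and the GRK-Inh and control arrays overlapped in 2 of them.

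Gna11, the alpha subunit of G11, did not pass in any comparison. Its main probe set gave 2111 and 2061 in RKIP-labelled, 1867 and 1926 in GRK-Inh, and 2199 and 2082 in control hearts. The GRK-Inh arrays were lowest and the other groups overlapped. The log2 fold change was -0.17 ± 0.056 in GRK-Inh hearts (adjusted p = 0.0729, 95% interval -0.29 to -0.05) and -0.036 ± 0.056 in RKIP-labelled hearts (adjusted p = 0.75). The value in GRK-Inh hearts passed with quantile normalization (adjusted p = 0.0499). The other probe set of Gna11 gave 0.11 in RKIP-labelled and 0.09 in GRK-Inh hearts, the opposite direction, with overlapping arrays.

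**Figure D3:**
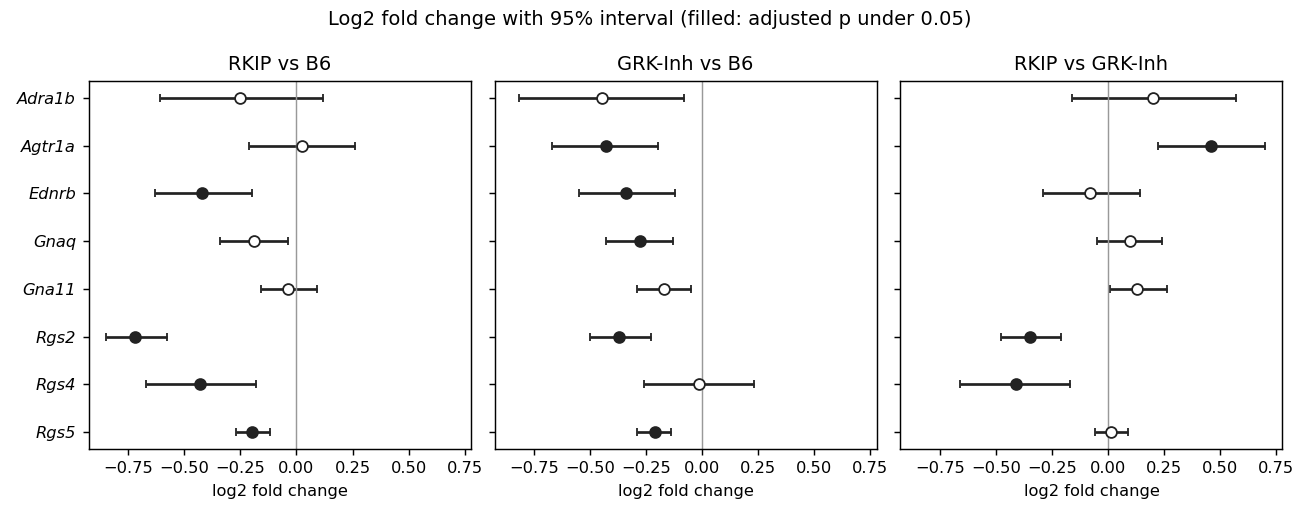
Log2 fold change with its 95% interval for the 8 genes in each of the 3 comparisons, on the log2(signal + 50) scale. Filled points passed at an adjusted p under 0.05; no member was called higher than controls in either line.

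Counted over the 8 members, 4 fell and 0 rose in RKIP-labelled hearts, where 5.51% of all genes tested were called lower and 5.32% higher. In GRK-Inh hearts 5 fell and 0 rose, against a background of 7.27% lower and 5.86% higher. Between the lines 2 members were lower and 1 was higher in RKIP-labelled hearts, where 8.82% of all genes were called, 4.35% lower and 4.47% higher. The members were chosen with earlier results of these data known, so their counts beside these shares are a description and not a test. The members' median log2 fold change was -0.22 in RKIP-labelled and -0.31 in GRK-Inh hearts, and over all genes tested it was -0.017 and -0.031. Rgs2, Rgs5 and Ednrb were called lower in both lines. These comparisons share their 2 control arrays, so the values of the lines are not independent, and 2.69% of all genes were called lower in both. Without limma's variance trend, 1 member passed in each line, Rgs2.

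The rest of the Gq pathway was followed with 9 further lists of 154 genes, of which 106 were tested. In RKIP-labelled hearts 3 of them were called higher and 9 lower, and in GRK-Inh hearts 1 higher and 9 lower. The first 9 include Gng4, which was below the filter level in RKIP-labelled hearts. Those 12 and 10 calls of 106 lie near the shares of all genes called, 10.8% and 13.1%. The lists' joint median was -0.026 and -0.044. Of the calls, 0 of 12 in RKIP-labelled hearts and 5 of 10 in GRK-Inh hearts passed with each array left out in turn.

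Upstream of the receptors, the list of ligands and their enzymes had 6 tested genes. In GRK-Inh hearts 1 fell, the endothelin-converting enzyme gene Ece1 (-0.37 ± 0.096, adjusted p = 0.0285, lost without GRK-Inh array 2, B6 array 1 or B6 array 2). In RKIP-labelled hearts none passed, and Ece1 gave -0.15 ± 0.096 (adjusted p = 0.386). Of 10 other Gq-coupled receptors tested, 1 fell in RKIP-labelled and 2 in GRK-Inh hearts. The sphingosine-1-phosphate receptor gene S1pr3 fell from 1913 ± 35 to 1555 ± 19.8 in RKIP-labelled and 1526 ± 36.2 in GRK-Inh hearts (mean signal ± SD, n = 2; adjusted p = 0.00918 and 0.00423). The first of these calls was lost without RKIP array 1 or B6 array 2. The thrombin receptor gene F2r fell to 2973 ± 14.4 in GRK-Inh hearts from 3911 ± 167 (-0.39 ± 0.053, adjusted p = 0.000756). In RKIP-labelled hearts F2r was at 3560 ± 170, higher than in GRK-Inh hearts (adjusted p = 0.0142, lost without RKIP array 2, GRK-Inh array 1 or GRK-Inh array 2).

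Of 7 other alpha subunits tested, including those of Gs, Gi and G12, none passed in any comparison, and Gnas, the subunit of Gs with the highest signal, gave -0.052 and 0.015 against controls. Of 10 beta and gamma subunits tested, 2 were called lower in RKIP-labelled hearts and none passed in GRK-Inh hearts, where Gng11 gave -0.065 (adjusted p = 0.518). Of these, Gng4 gave 17.4 and 11.4 in RKIP-labelled hearts, below the filter level of 50.2, 139 and 69.3 in GRK-Inh hearts, and 55.1 and 97.9 in control hearts. It passed the filter only through the groups where it is high, so its call is no evidence of a change and no fold change is given. Gng10 fell by 0.24 (adjusted p = 0.0401), a call lost without any one of the 6 arrays.

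Of 12 other RGS genes tested, 1 fell in each line. Rgs7 fell in RKIP-labelled hearts, from 189 ± 3.5 to 104 ± 14.4 (-0.63 ± 0.15, adjusted p = 0.0209), lost without RKIP array 1, B6 array 1 or B6 array 2. Rgs9, best known from the retina, fell in GRK-Inh hearts, from 160 ± 17.9 to 85.1 ± 4.3 (-0.63 ± 0.16, adjusted p = 0.022), lost without GRK-Inh array 1, GRK-Inh array 2, B6 array 1 or B6 array 2. Both sizes depended on the offset, at -0.77 and -0.79 with 16 and -0.35 and -0.33 with 200. Between the lines none of the 12 passed, and Rgs3 gave 0.051 (adjusted p = 0.844). In the genome Rgs5 and Rgs4 are next to each other on chromosome 1. On the same chromosome the neighbours of Rgs2 to one side are Rgs13, Rgs1 and Rgs21, none of which was tested. Uchl5, next to Rgs2 on the other side, was higher in RKIP-labelled hearts than in controls (0.37, adjusted p = 0.00598). Hsd17b7, near Rgs4 and Rgs5, was lower in RKIP-labelled (-0.35, adjusted p = 0.0321) and GRK-Inh hearts (-0.97, adjusted p = 5.4e-05). Of the other near neighbours of these RGS genes, Glrx2, Ro60 and Ddr2 were tested and did not pass.

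**Figure D4:**
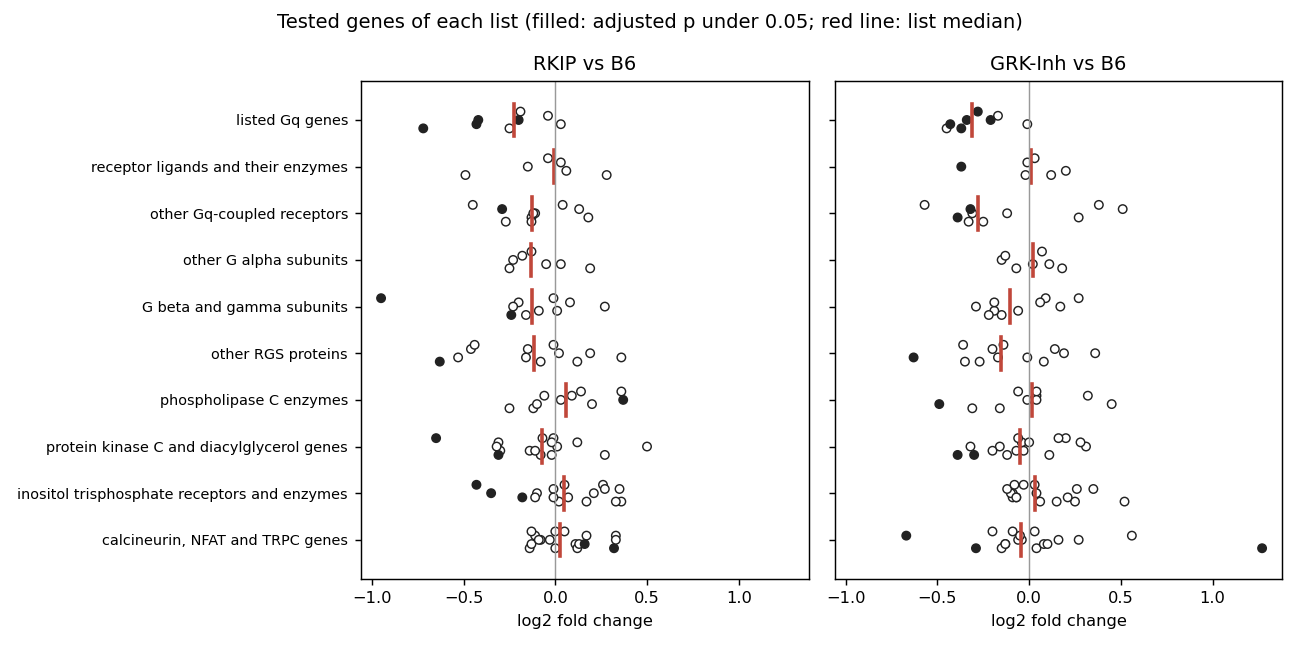
Log2 fold change of the tested genes of the 8-gene list described here and of 9 further lists of the Gq pathway, in RKIP-labelled (left) and GRK-Inh (right) against control hearts. Each point is a gene, filled where it passed, and red lines are list medians; Rcan1 is the point farthest to the right, at 1.27 in GRK-Inh hearts.

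Downstream of Gq, the effector enzymes moved in few members. Of 10 phospholipase C genes tested, Plcg2 rose in RKIP-labelled hearts (0.37 ± 0.1, adjusted p = 0.0382, lost without any one of the 6 arrays). Plcg1 fell in GRK-Inh hearts (-0.49 ± 0.09, adjusted p = 0.00495, lost without B6 array 1). Both encode gamma isoforms, which tyrosine kinases activate, and no beta isoform passed. Plcg1 was higher in RKIP-labelled than in GRK-Inh hearts (0.38, adjusted p = 0.0264), lost without RKIP array 1, RKIP array 2, GRK-Inh array 1 or GRK-Inh array 2.

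Of 16 protein kinase C and diacylglycerol genes, 2 fell in each line and none rose. Prkd3, a protein kinase D gene, fell by 0.31 in RKIP-labelled hearts (adjusted p = 0.0215), lost without RKIP array 1, RKIP array 2, B6 array 1 or B6 array 2, and by 0.39 in GRK-Inh hearts (adjusted p = 0.00491). The related Prkd2 fell in RKIP-labelled hearts (-0.65 ± 0.17, adjusted p = 0.0323), lost without RKIP array 1, B6 array 1 or B6 array 2. This call was also lost without a filter on dim genes and without limma's variance trend. Its size ranged from -0.82 to -0.38 over the alternatives. The diacylglycerol kinase gene Dgkz fell in GRK-Inh hearts (-0.30 ± 0.082, adjusted p = 0.0354), lost without GRK-Inh array 1, GRK-Inh array 2 or B6 array 1. Of 17 inositol trisphosphate receptor and enzyme genes, 3 fell in RKIP-labelled hearts. These were Itpkb (-0.43), Impa1 (-0.35) and Inpp5a (-0.18), enzymes of inositol phosphate turnover (adjusted p 0.0372 to 0.0457). Each call was lost without RKIP array 1, B6 array 1 or B6 array 2, that of Itpkb also without GRK-Inh array 1 or GRK-Inh array 2, and that of Inpp5a without any one of the 6 arrays. None of the 17 passed in GRK-Inh hearts, where Inpp5a gave -0.086 (adjusted p = 0.295).

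Of 18 calcineurin, NFAT and TRPC genes, 2 rose in RKIP-labelled hearts, and 1 rose and 2 fell in GRK-Inh hearts. Rcan1, a calcineurin regulator and target of NFAT, rose from 1096 ± 35.3 to 2706 ± 80.5 in GRK-Inh hearts and to 1386 ± 188 in RKIP-labelled hearts (mean signal ± SD, n = 2). The direct difference between the lines passed (-0.95 ± 0.083, adjusted p = 5.9e-05). The smaller rise in RKIP-labelled hearts (0.32 ± 0.083, adjusted p = 0.0336) was lost without RKIP array 1, B6 array 1 or B6 array 2, and without RKIP array 1 it was 0.19. Rcan2 rose there by 0.16 (adjusted p = 0.0171), lost without RKIP array 1, RKIP array 2 or B6 array 1. In GRK-Inh hearts Hdac9, a class II histone deacetylase gene, fell (-0.67 ± 0.088, adjusted p = 0.000592), and so did the transcription factor gene Mef2c (-0.29 ± 0.07, adjusted p = 0.0182, lost without GRK-Inh array 1, GRK-Inh array 2 or B6 array 2). Hdac9 was also higher in RKIP-labelled than in GRK-Inh hearts (0.56 ± 0.088, adjusted p = 0.00297).

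**Figure D5:**
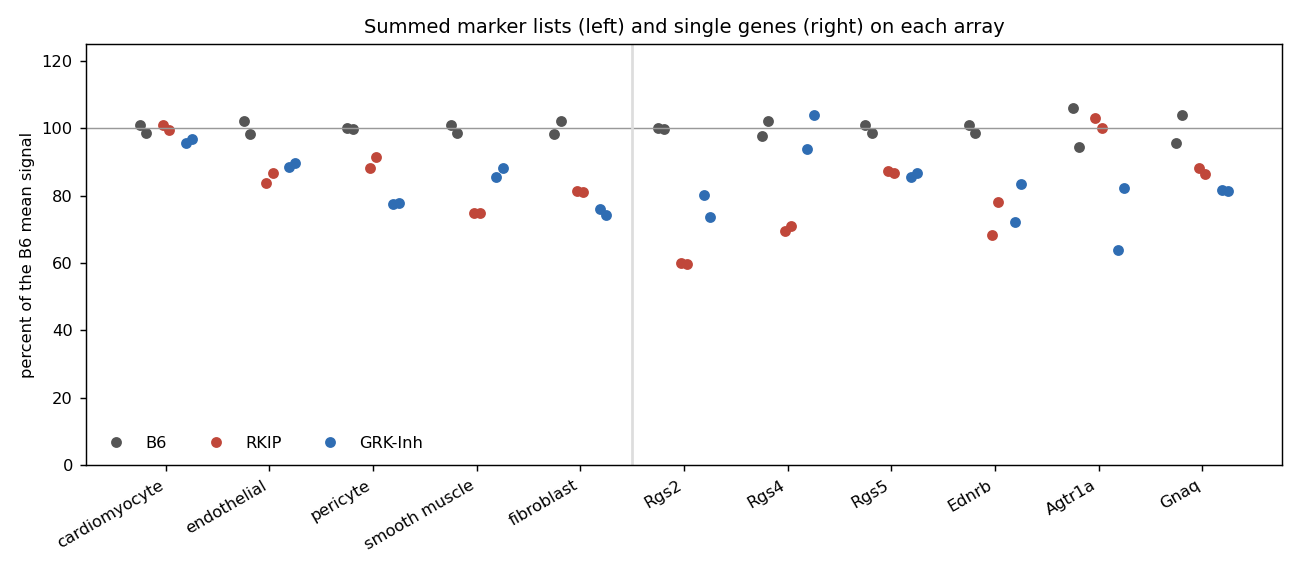
Signal on each array as a percent of the mean of the 2 control arrays, for summed marker lists of 5 cell types (left) and for 6 genes (right). Cardiomyocyte markers lie between 95.6 and 101%, and Rgs2 lies at 59.8 to 59.9% in RKIP-labelled hearts. The sums of the other cell types shown, in which a few bright genes weigh most, lie below the controls on all 4 transgenic arrays. The sum of the Schwann cell and melanocyte markers, not shown, lies at 110 to 119% on these arrays. Most of it is Mitf, which did not pass in either line (log2 fold change 0.20 and 0.13).

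Beside the whole set, markers of smooth muscle, which uses several of these receptors and RGS proteins, had a summed signal of 7998 to 8010 in RKIP-labelled, 9166 to 9445 in GRK-Inh and 10564 to 10858 in control hearts. Most of this sum was the actin gene Acta2. Of 6 tested, 3 fell in RKIP-labelled and 2 in GRK-Inh hearts, and none rose. Acta2 was at 4857 ± 198, 6041 ± 5.82 and 6893 ± 274 in the 3 groups (mean signal ± SD, n = 2). Means stood in the order of Rgs2, control, GRK-Inh, RKIP-labelled, in 3 of the 6 markers (Acta2, Myh11 and Tagln). Myocd, a coactivator of smooth muscle genes, was lowest in GRK-Inh hearts (1566, 1359 and 1739 in RKIP-labelled, GRK-Inh and control hearts), and Cnn1 (107, 159 and 112) and Smtn (310, 335 and 304) were highest there without passing. The part of these markers in the values of Rgs2, Rgs4 and Rgs5 was not tested. Of 5 atrial cardiomyocyte markers, 3 were called lower in RKIP-labelled and 1 in GRK-Inh hearts, and 0 higher. Against controls, Myl7 gave -0.35 and 0.01, Sln -0.14 and -0.02, and Bmp10 -0.85 and -1.43 in RKIP-labelled and GRK-Inh hearts. The part of the atrial markers in the values of the members was not tested. The summed cardiomyocyte markers were at 99.5 and 101% of the control mean in RKIP-labelled hearts, where Rgs2 was at 59.8 and 59.9%. Bright genes weigh most in this sum, among them Myh6 at 35906 to 39466, where the highest signal of each array was 37546 to 41679. Whether signals so near the top of the scale still follow the amount of RNA was not tested. Of the 10 markers in this sum, 2 were called higher there and 0 lower. These were Actn2 (0.22, adjusted p = 0.00484) and Myom1 (0.18, adjusted p = 0.0129). None of the 10 passed in GRK-Inh hearts, and their part in the values of Rgs2 was not tested.

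The genes whose log2 signals over the 6 arrays were most like those of the called members are given as a description. For Rgs2 they were Hacd1, Higd1a and Ppargc1b, each with a Pearson r of 0.997 across the 6 arrays. For Rgs4 they were Cd44 (0.994), Ank2 (0.993) and Mrpl41 (0.993), and for Rgs5 Ifitm3 (0.998), Nrp1 (0.997) and Klf10 (0.997). Ednrb was most like Tmem229b (0.999), Elk3 (0.992) and Fli1 (0.991), Gnaq most like Spry2 (0.996), Prkg2 (0.994) and Dcn (0.987), and Agtr1a most like Ppcs (0.989), Commd7 (0.987) and Htra4 (0.987). The points share 3 groups of 2 arrays, and between 219 and 503 of the 11254 genes tested reached an r of 0.9 with each member. How many came near the higher values named was not counted. The genes named are those of highest r among all tested, so these values are no evidence of a link.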

How the data were processed

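RNA of 6 heart samples, 2 per group, was hybridised as biotin-labelled cRNA to Affymetrix arrays. The deposited intensity of each probe set is a linear signal that the authors computed and scaled with GCOS, per the submitters' processing notes; its version is not given in the sources used here. Every array had a 2% trimmed mean of 300.002. Of 45101 probe sets, 64 controls were set aside and 34945 had a single symbol. The table names no genome build, and promoter sequences are RefSeq's. Signals were taken as log2(signal + 50) without further normalization. Genes with a mean log2 value of at least 6.65 were tested with limma 3.58.1 in R 4.3.3, in a single model of the 3 groups with 3 residual and 7.6 prior degrees of freedom and a variance trend. Two-sided p-values were adjusted by Benjamini and Hochberg over 11254 genes, and a gene was called under 0.05. The number of arrays limits the precision (median SE 0.115). Secondary probe sets were tested in a fit of 22519 probe sets.

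The members and lists were chosen with earlier results of these data known. Named were all members, up to 3 called genes per list and comparison (largest change) or else the gene of highest signal, and the 3 genes most correlated with each called member. A further list is not reported here. Neighbouring genes and the paralog were added after values were seen. The procedure was tested on simulated data. Alternatives were 2 other normalizations, offsets of 16 and 200, 2 other filters, probe sets one by one, 2 other variance models, only the compared arrays, a replicate block, a threshold of 0.01, and each array left out. Same-numbered arrays had deviations correlated at 0.0258, -0.0298 and -0.035 across 11254 genes. Figures used Python 3.11.15 and matplotlib 3.10.9.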

Additional observations from a re-analysis of the deposited data

Results flagged for a closer look

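The 2 transgenic lines, measured against shared controls, differed by their direct comparison in 3 members. Agtr1a was higher in RKIP-labelled than in GRK-Inh hearts by 0.46 on the log2 scale (adjusted p = 0.024), Rgs2 was lower (-0.35, adjusted p = 0.00556), and Rgs4 was lower (-0.41, adjusted p = 0.0435). For Agtr1a the 2 GRK-Inh arrays were themselves apart, at 615 and 792. Only for Rgs2 did further probe sets of the same gene pass in this comparison, so that 3 of 3 above the filter passed, the main one included. Of all probe sets tested one by one, 5.74% passed between the lines. In that fit of probe sets one by one, the main probe set of Rgs4 did not pass (adjusted p = 0.0587). Agtr1a has a single probe set. With 2 arrays in a group, no single array was screened for standing apart.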

How the results depend on the processing

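Over the members' 24 values, 348 of 405 alternative values kept their direction and side of the threshold, 46 lost a call, 1 gained one and 10 turned in sign, none of them a called value. Rgs2 against controls passed in both lines under all 17 alternatives. With a variance without trend the genes called were 297 in RKIP-labelled hearts (1219 as reported), 731 in GRK-Inh hearts (1477) and 255 between the lines (993), and the members called were 1, 1 and 0. At an adjusted p under 0.01 the genes called were 519, 769 and 416. Without a filter on dim genes, 617 genes passed between the lines, and 3 members in GRK-Inh hearts and 1 between the lines. With probe sets one by one, 2324 passed in GRK-Inh hearts. Leaving out each array in turn gave 621 to 1126, 896 to 1483 and 465 to 874 genes, and 2 to 4, 2 to 5 and 0 to 2 members. Fewer arrays are the only change made there; elsewhere the cause was not tested. Turned values, none called, were Rgs4 in GRK-Inh hearts (0.018 with quantile normalization, 0.032 with arrays shifted to one median, -0.079 to 0.054 with an array left out) and Rgs5 between the lines (-0.009 and -0.025 with the same normalizations). With an array left out, Agtr1a in RKIP-labelled hearts spanned -0.05 to 0.10, Gna11 there -0.074 to 0.0024, Gnas in GRK-Inh hearts -0.028 to 0.059, and between the lines Ednrb -0.18 to 0.016 and Rgs3 -0.028 to 0.13. Same-numbered arrays share only a number; with the number as a replicate block 1150, 1434 and 905 genes and 4, 5 and 2 members passed, the call lost being Rgs4 between the lines (adjusted p = 0.0556). Signal near background limits Adra1b most.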
